A study of Homo sapiens with 16 samples.

Results

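The genes described here were 61 protein-coding genes of collagen synthesis, taken from a count table of 34228 genes of which 18159 were protein-coding. They were chosen by symbol, as every *COL* gene that encodes a collagen alpha chain plus *SERPINH1*, *PLOD1* to *PLOD3*, *P4HA1* to *P4HA3*, *P3H1* to *P3H4*, *CRTAP*, *LOX* and *LOXL1* to *LOXL4*. These were 44 collagen chains and 17 maturation genes. By structure the chains were 11 fibrillar, 6 of basement membrane collagen IV, 5 of beaded filament collagen VI, 3 short-chain, 10 FACIT (collagens that sit on fibrils), 4 transmembrane, 2 multiplexin and 3 anchoring or other chains.

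RNA-Seq was done on 451Lu-R and 1205Lu-R, which are human melanoma cell lines and had both been made resistant to the BRAF inhibitor (BRAFi) PLX4032 by raising its dose over months and were kept in it in culture. Each line received the vehicle DMSO or 2.5 μM corin, an inhibitor of the CoREST repressor complex that joins a histone deacetylase inhibitor and an LSD1 inhibitor in 1 molecule, for 24 hours, and no PLX4032 is named in these treatments. There were 2 libraries per group and 8 in all, and neither the labels nor the methods say whether the 2 were separate cultures, so each p-value measures the spread between these samples, which may be technical. Each genetic background is 1 cell line, so a difference between the lines cannot be assigned to any property in which they differ.

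Collagens are secreted proteins of 3 chains wound into a triple helix. In the endoplasmic reticulum, prolyl 4-hydroxylases stabilize the helix, prolyl 3-hydroxylases and lysyl hydroxylases modify further residues, and the chaperone HSP47, encoded by *SERPINH1*, binds the folded procollagen until it is exported. Outside the cell, lysyl oxidases cross-link the chains. Melanoma cells can make collagen themselves, and collagen from tumor cells and stroma is part of the matrix that surrounds a melanoma.

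Libraries held 9516687 to 11797788 estimated counts, and values are given as CPM (counts scaled to 1000000 per library) unless a log2 fold change is named. All 7 melanocytic lineage markers were detected in 451Lu-R, with summed levels of 11399 to 13311 CPM. In 1205Lu-R they summed to 7.25 to 19.1 CPM and *SOX10* and *TYR* were at 0 in all 4 libraries, so these markers do not mark it as melanocytic. Markers of other cell types also moved with corin. In 451Lu-R endothelial markers summed to 9.08 and 10.9 CPM with DMSO and to 72.9 and 70.5 CPM with corin. Their sums for 1205Lu-R were 11.1 and 11.7 CPM, against 51.9 and 46.6 CPM after corin. These rises came mostly from *KDR* (means of 8.57 to 62.9 CPM in 451Lu-R, 0.650 to 23.5 CPM in 1205Lu-R) and *VWF* (1.35 to 8.32 and 1.33 to 18.4 CPM). *PECAM1* was at 0 in all 451Lu-R libraries, while in 1205Lu-R its mean dropped from 9.41 to 7.32 CPM. *CDH5* had a mean of at most 0.427 CPM in any group. Keratinocyte markers summed to 0.275 and 0.414 CPM with DMSO and to 8.14 and 7.10 CPM in the corin libraries of 451Lu-R, and in 1205Lu-R to 0 in both DMSO libraries and to 0.736 and 0.360 CPM after corin. Leukocyte markers went from 2.02 and 3.52 CPM to 6.61 and 5.20 CPM in 451Lu-R and from 0.723 and 0.471 CPM to 1.16 and 1.17 CPM in 1205Lu-R. The part of these markers in the results was not tested. In bulk libraries such as these, fewer cells of a type and less RNA per cell cannot be told apart.

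The upstream sequence of the genes that moved in the same direction in both lines is shown first, for 3 of them. *SERPINH1* fell most of all members in each line, and *P4HA1* and *PLOD2* rose in both. For each, the 250 bases before the RefSeq start (GRCh38.p14) are given 5′ to 3′ on the strand of the gene. In *SERPINH1* (chr11:75562003-75562252, plus strand, the first of its 2 starts) capitals mark a heat shock element of 3 units, written TTCNNGAANNTTC or, on the other strand, GAANNTTCNNGAA. In *P4HA1* (chr10:73096867-73097116, minus strand) and *PLOD2* (chr3:146161185-146161434, minus strand) capitals mark ACGTG on either strand, a form of the core of the hypoxia response element. Other forms of that core, such as GCGTG, were not searched for or marked. GENCODE 44 places the outermost start of each of these 3 genes inside or upstream of the printed bases.
SERPINH1: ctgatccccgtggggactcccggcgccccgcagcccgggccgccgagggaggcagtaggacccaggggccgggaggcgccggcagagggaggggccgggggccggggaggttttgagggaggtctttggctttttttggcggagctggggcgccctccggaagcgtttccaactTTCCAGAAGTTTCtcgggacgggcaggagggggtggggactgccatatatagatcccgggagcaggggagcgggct
P4HA1: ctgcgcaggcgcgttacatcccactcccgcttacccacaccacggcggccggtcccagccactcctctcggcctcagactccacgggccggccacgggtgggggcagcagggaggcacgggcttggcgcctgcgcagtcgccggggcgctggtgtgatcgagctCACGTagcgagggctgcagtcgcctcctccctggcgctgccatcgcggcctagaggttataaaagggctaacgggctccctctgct
PLOD2: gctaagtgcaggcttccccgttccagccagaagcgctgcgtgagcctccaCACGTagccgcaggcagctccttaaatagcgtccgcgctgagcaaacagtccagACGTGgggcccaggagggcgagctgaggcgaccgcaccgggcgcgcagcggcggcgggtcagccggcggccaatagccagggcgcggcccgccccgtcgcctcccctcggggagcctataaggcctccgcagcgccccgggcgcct

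The heat shock element began 76 bases before the *SERPINH1* start. The same motif was present in 155 of 35116 such windows (0.441%), and *SERPINH1* was the only 1 of the 46 members with a window that had it. ACGTG occurred once before *P4HA1*, beginning 86 bases before the start, and at 200 and 146 bases before *PLOD2*. It was present in 18.5% of all windows and before 11 of the 46 members, so it did not set these genes apart. A match is a description of letters and says nothing of which factor binds.

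The first question was how corin changed these genes in 451Lu-R, the line with melanocytic markers. Of the 61 members, 39 had enough counts to be tested, and 21 rose and 14 fell at an adjusted p under 0.05 (edgeR's quasi-likelihood test, Benjamini-Hochberg adjustment over all genes), while 4 did not pass. The share of all 14530 tested genes called was 41.3% higher and 38.6% lower, so most genes moved and a call alone did not set a member apart. At a change of at least 2-fold, 14 members rose and 8 fell, against 22.2% and 13.3% of all genes. The median log2 fold change was 0.31 over the tested members and 0.03 over all tested genes. Collagen chains made up 15 of the members that rose and 9 of those that fell, and maturation genes 6 and 5.

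In 1205Lu-R, 38 members were tested, of which 19 rose, 17 fell and 2 did not pass. The shares among all 14563 tested genes were 40.4% and 37.8%. At least 2-fold changes were seen in 12 members that rose and 2 that fell, against 22% and 9.8% of all genes, and the 2 that fell were *SERPINH1* and *LOXL3*. The median log2 fold change was 0.21 over members and 0.03 over all genes. Of the 31 members tested in both lines, 26 were called in both, with 11 higher in both, 8 lower in both and 7 of opposite direction. Over all 13200 genes tested in both lines, 67.4% were called in both, with 28.8% higher in both, 28.5% lower in both and 10.1% of opposite direction. The 2 comparisons share no library.

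Summed over all members, levels were lower with corin in both lines. Members took 0.245% and 0.239% of all counts in the DMSO libraries of 451Lu-R, against 0.182% and 0.180% after corin. For 1205Lu-R the vehicle shares were 1.01% and 1.03%, against 0.860% and 0.854% after corin. In both lines the corin libraries lay below the DMSO libraries without overlap. Summed over the 44 chains, collagen levels went from 675 and 641 CPM to 627 and 596 CPM in 451Lu-R and from 6756 and 6923 CPM to 5432 and 5382 CPM in 1205Lu-R. The maturation genes summed to 1774 and 1745 CPM with DMSO and 1196 and 1204 CPM with corin in 451Lu-R, and to 3356 and 3389 CPM against 3169 and 3157 CPM in 1205Lu-R. No test was made of these sums, which weigh members by their abundance. *SERPINH1* alone went from means of 437 to 14.7 CPM in 451Lu-R and from 267 to 10.3 CPM in 1205Lu-R. *COL9A3* went from 278 to 135 CPM in 451Lu-R and from 12.5 to 24.0 CPM in 1205Lu-R. By number, 21 members rose and 14 fell in 451Lu-R, with a median log2 fold change of 0.31. In 1205Lu-R 19 rose and 17 fell, with a median of 0.21.

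The collagen chaperone gene *SERPINH1* had the largest fall of any tested member in both lines. In 451Lu-R it was at 445 and 429 CPM with DMSO and at 15.5 and 14.0 CPM with corin. In 1205Lu-R it was at 268 and 266 CPM with DMSO and at 10.1 and 10.5 CPM with corin. The 2 groups were far apart in each line, and replicates differed by little. The log2 fold change was -4.78 ± 0.05 (SE, n = 2 per group, edgeR adjusted p = 1.42e-23) in 451Lu-R and -4.76 ± 0.06 (edgeR adjusted p = 6.38e-25) in 1205Lu-R. The difference between these responses was -0.02 ± 0.13 on the log2 scale (edgeR interaction term, adjusted p = 0.939), so none was detectable.

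**Figure D1:**
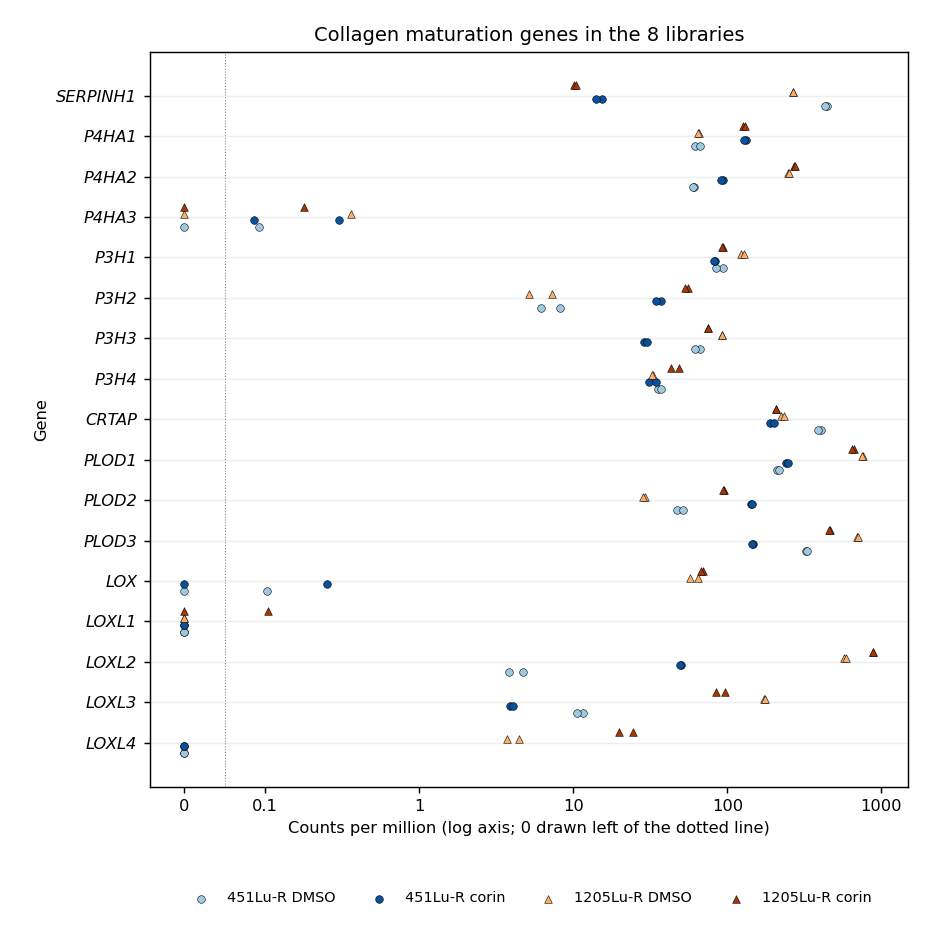
Levels of the 17 collagen maturation genes in CPM (log axis, with 0 drawn left of the dotted line), 1 point per library, 2 libraries per group. *SERPINH1* dropped from 266 to 445 CPM with DMSO to 10.1 to 15.5 CPM with corin, while *P4HA1*, *P3H2* and *PLOD2* moved up in both lines.

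The prolyl 4-hydroxylases, whose alpha subunits carry the catalytic site, did not fall in either line. *P4HA1* was at 62.1 and 66.8 CPM with DMSO and 132 and 129 CPM with corin in 451Lu-R, and at 65.8 and 64.6 CPM against 126 and 130 CPM in 1205Lu-R. Its log2 fold changes were 1.12 ± 0.05 (edgeR adjusted p = 2.42e-14) and 0.90 ± 0.04 (edgeR adjusted p = 3.67e-14). Both lines thus began and ended at nearly the same *P4HA1* level. *P4HA2* was at 61.1 and 59.5 CPM with DMSO and at 93.7 and 91.4 CPM with corin in 451Lu-R, a rise of 0.72 ± 0.05 on the log2 scale (edgeR adjusted p = 8.57e-11). In 1205Lu-R it was at 248 and 251 CPM and at 271 and 276 CPM, where the log2 fold change of 0.06 ± 0.03 did not pass (edgeR adjusted p = 0.0791). It did pass with library size as the only scaling, at 0.14 (edgeR adjusted p = 0.000475), and with the filter at a mean of 1 CPM, at 0.08 (edgeR adjusted p = 0.0315). *P4HA3* had 0 to 0.361 CPM and was not tested.

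The prolyl 3-hydroxylase group split. *P3H2*, a prolyl 3-hydroxylase, rose from 8.25 and 6.21 CPM to 37.3 and 34.4 CPM in 451Lu-R and from 7.32 and 5.18 CPM to 55.5 and 53.3 CPM in 1205Lu-R. The log2 fold changes were 2.40 ± 0.12 (edgeR adjusted p = 1.91e-13) and 3.04 ± 0.11 (edgeR adjusted p = 1.41e-16). *CRTAP*, the partner protein of P3H1 in the endoplasmic reticulum, fell in both. It was at 405 and 389 CPM with DMSO and 189 and 201 CPM with corin in 451Lu-R, where the log2 change was -0.93 ± 0.03 (edgeR adjusted p = 5.86e-16). In 1205Lu-R it was at 224 and 234 CPM and at 206 and 208 CPM, a change of -0.21 ± 0.03 (edgeR adjusted p = 7.18e-06). With corin, *CRTAP* did not differ detectably between the lines (log2 difference 0.00 ± 0.03, edgeR adjusted p = 0.975), although with DMSO it was lower in 1205Lu-R by -0.69 ± 0.03. With library size as the only scaling, the difference with corin passed, at 0.09 higher in 1205Lu-R (edgeR adjusted p = 0.0225).

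*P3H1*, the catalytic partner of CRTAP, was at 93.4 and 84.5 CPM with DMSO and 82.8 and 81.5 CPM with corin in 451Lu-R, with a log2 change of -0.02 ± 0.05 (edgeR adjusted p = 0.744), which passed with library size as the only scaling (-0.12, edgeR adjusted p = 0.0456). In 1205Lu-R it fell from 122 and 128 CPM to 93.7 and 92.8 CPM (-0.50 ± 0.04, edgeR adjusted p = 3.98e-10). *P3H3*, which works with lysyl hydroxylase 1, fell in both lines. It went from 66.5 and 61.3 CPM to 28.8 and 30.0 CPM in 451Lu-R (-1.02 ± 0.07) and from 92.9 and 92.6 CPM to 75.0 and 74.9 CPM in 1205Lu-R (-0.38 ± 0.05). *P3H4*, a member of the same complex without enzyme activity, was at 35.3 and 37.4 CPM against 31.0 and 34.5 CPM in 451Lu-R (-0.05 ± 0.08, edgeR adjusted p = 0.558). It rose in 1205Lu-R from 33.2 and 32.6 CPM to 48.9 and 43.2 CPM (0.41 ± 0.07, edgeR adjusted p = 4.17e-05).

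The 3 lysyl hydroxylases moved in 3 ways. *PLOD2*, whose enzyme hydroxylates the telopeptide lysines that later form stable cross-links, rose in both lines. It was at 47.5 and 51.6 CPM with DMSO and 143 and 144 CPM with corin in 451Lu-R, and at 29.2 and 28.6 CPM and 94.6 and 93.8 CPM in 1205Lu-R. The log2 fold changes were 1.64 ± 0.05 (edgeR adjusted p = 9.73e-17) and 1.63 ± 0.06 (edgeR adjusted p = 9.81e-17), and the difference between them was -0.04 ± 0.08 (edgeR adjusted p = 0.709). *PLOD3*, which also glycosylates hydroxylysine, fell in both. It went from 324 and 330 CPM to 148 and 144 CPM in 451Lu-R (-1.06 ± 0.03, edgeR adjusted p = 5.02e-17) and from 698 and 703 CPM to 463 and 460 CPM in 1205Lu-R (-0.68 ± 0.03, edgeR adjusted p = 5.15e-16). *PLOD1*, which acts on helical lysines, rose from 210 and 215 CPM to 241 and 246 CPM in 451Lu-R (0.29 ± 0.03) and fell from 759 and 749 CPM to 659 and 644 CPM in 1205Lu-R (-0.28 ± 0.02), with a difference of -0.62 ± 0.04 (edgeR interaction term, adjusted p = 9.34e-11). *PLOD3* shares exonic sequence with *ZNHIT1* on the opposite strand, and strandedness of the libraries is not given in the sources used here.

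Of the lysyl oxidases, *LOXL2* was the most abundant per length in 1205Lu-R. The 451Lu-R libraries had 3.85 and 4.76 CPM with DMSO and 50.1 and 49.5 CPM with corin, a log2 fold change of 3.64 ± 0.11 (edgeR adjusted p = 1.21e-16). In 1205Lu-R it was at 576 and 591 CPM and at 887 and 886 CPM, a change of 0.53 ± 0.02 (edgeR adjusted p = 1.1e-14). With corin, 451Lu-R still lay far below either group of 1205Lu-R. *LOXL3* fell in both lines, from 11.6 and 10.6 CPM to 3.90 and 4.10 CPM in 451Lu-R (-1.37 ± 0.17) and from 172 and 174 CPM to 84.8 and 96.6 CPM in 1205Lu-R (-1.0 ± 0.05). Their responses did not differ detectably (0.33 ± 0.19, edgeR adjusted p = 0.149). The difference in *LOXL3* did pass without the first corin library of 1205Lu-R (0.44, edgeR adjusted p = 0.0398), and with library size alone as the scaling (0.54, edgeR adjusted p = 0.0171).

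*LOX* and *LOXL4* were seen in 1205Lu-R and were at the floor of 3 counts or fewer per library in 451Lu-R. *LOX* was at 57.7 and 64.3 CPM with DMSO and 69.2 and 67.3 CPM with corin in 1205Lu-R, a log2 change of 0.09 ± 0.06 (edgeR adjusted p = 0.157), which passed with library size as the only scaling (0.16, edgeR adjusted p = 0.0125). *LOXL4* rose there from 3.70 and 4.43 CPM to 24.5 and 19.9 CPM (2.37 ± 0.16, edgeR adjusted p = 6.68e-12). *LOXL1* was at 3 counts or fewer in all 8 libraries. All 5 lysyl oxidase genes have exons that overlap a gene on the other strand. *LOXL2* also shares exonic sequence with *ENTPD4* on its own strand. The partners of *LOX* (*SRFBP1*) and *LOXL3* (*HTRA2*) had 146 to 439 counts per library. In 451Lu-R, *HTRA2* had 299 to 439 counts per library, against 41 to 126 for *LOXL3* itself. *DOK1*, a second partner of *LOXL3*, had 143 and 151 counts in the vehicle libraries of 1205Lu-R and 76 and 62 after corin. For 451Lu-R its counts were 25 and 22, then 57 and 37. The part of these partners in the *LOXL3* values was not tested.

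The fibrillar chains form the striated fibrils of skin and stroma. *COL1A1*, the main chain of type I collagen, was at 0.550 and 0.724 CPM with DMSO and at 39.1 and 41.6 CPM with corin. Its log2 fold change was 6.06 ± 0.17 (edgeR adjusted p = 4.76e-17). *COL1A2*, the partner chain in the usual type I heterotrimer, stayed near the limit of detection. It had 1 and 0 counts with DMSO and 14 and 12 counts with corin (1.19 and 1.20 CPM), at least 4.08-fold higher than the floor of 3 counts. With corin, *COL1A1* had 32.9 and 34.7 counts for each count of *COL1A2* in the 2 libraries. Per kilobase of exon the levels were 4.48 and 0.110 CPM per kb.

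In 1205Lu-R *COL1A1* rose from 1.27 and 1.04 CPM to 8.62 and 9.09 CPM (2.86 ± 0.24, edgeR adjusted p = 5.72e-10), and *COL1A2* had 0 counts in all 4 libraries. The rise of *COL1A1* was smaller in 1205Lu-R by -3.24 ± 0.43 on the log2 scale (edgeR interaction term, adjusted p = 1.54e-06). Fibroblast markers moved beside it. With the 3 collagen genes of that list left out, the other 6 summed to 53.6 and 50.0 CPM with DMSO and 118 and 113 CPM with corin in 451Lu-R, and to 333 and 338 CPM and 181 and 177 CPM in 1205Lu-R. *COL3A1* was at 0 in all 451Lu-R libraries, and *THY1* and *FAP* were at 0 there with DMSO. In 1205Lu-R *LUM* and *COL1A2* were at 0 in all libraries. The fibroblast sum thus rose with *COL1A1* in 451Lu-R, while in 1205Lu-R it dropped as *COL1A1* rose. Different genes made up most of this sum in each line. For 451Lu-R it was mostly *LUM*, whose mean went from 47.4 to 103 CPM. For 1205Lu-R it was mostly *PDGFRA* (means of 196 to 93.7 CPM) and *PDGFRB* (140 to 84.9 CPM). *PDGFRA* moved the other way in 451Lu-R, from 4.08 to 7.64 CPM. The part of the fibroblast sum in the *COL1A1* result was not tested.

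Collagen V, which forms the core on which type I fibrils start, went in opposite directions. *COL5A1* was at 0.917 and 0.621 CPM with DMSO and 12.4 and 11.5 CPM with corin in 451Lu-R, which is a log2 change of 4.02 ± 0.25 (edgeR adjusted p = 9.28e-12). In 1205Lu-R it fell from 115 and 121 CPM to 81.1 and 80.5 CPM (-0.62 ± 0.04, edgeR adjusted p = 2.28e-11). *COL5A3* showed the same pair of directions. It rose from 15.2 and 15.4 CPM to 26.7 and 24.3 CPM in 451Lu-R (0.84 ± 0.10) and fell from 41.3 and 42.8 CPM to 34.7 and 32.8 CPM in 1205Lu-R (-0.39 ± 0.07). *COL5A2* was at 0.188 to 2.0 CPM throughout and changed by -0.68 ± 0.45 in 451Lu-R (edgeR adjusted p = 0.173) and by 1.97 ± 0.55 in 1205Lu-R (edgeR adjusted p = 0.00247). That call was lost without the second DMSO library (1.41, edgeR adjusted p = 0.0682) or the first corin library (1.56, edgeR adjusted p = 0.0941).

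Other fibrillar chains fell. *COL11A2*, known from cartilage fibrils, was at 17.8 and 16.9 CPM with DMSO and 6.27 and 4.90 CPM with corin in 451Lu-R (-1.52 ± 0.14, edgeR adjusted p = 8.18e-09), and stayed at 0.270 to 0.525 CPM in 1205Lu-R. *COL27A1*, a fibrillar chain of cartilage, fell from 14.5 and 14.3 CPM to 3.41 and 3.10 CPM in 451Lu-R (-2.05 ± 0.17) and from 9.94 and 10.7 CPM to 6.25 and 6.84 CPM in 1205Lu-R (-0.73 ± 0.15). *COL24A1* fell from 1.56 and 1.97 CPM to 0.424 and 0.50 CPM in 451Lu-R (-1.81 ± 0.46, edgeR adjusted p = 0.00149). In all, 451Lu-R had 4 of the 11 fibrillar chains higher and 3 lower with corin, and 1205Lu-R had 2 higher and 3 lower. Per read, fibrillar chains went from 7.73% and 8.06% of collagen counts with DMSO to 14.4% and 14.8% with corin in 451Lu-R, and ranged from 2.43% to 2.54% in 1205Lu-R.

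**Figure D2:**
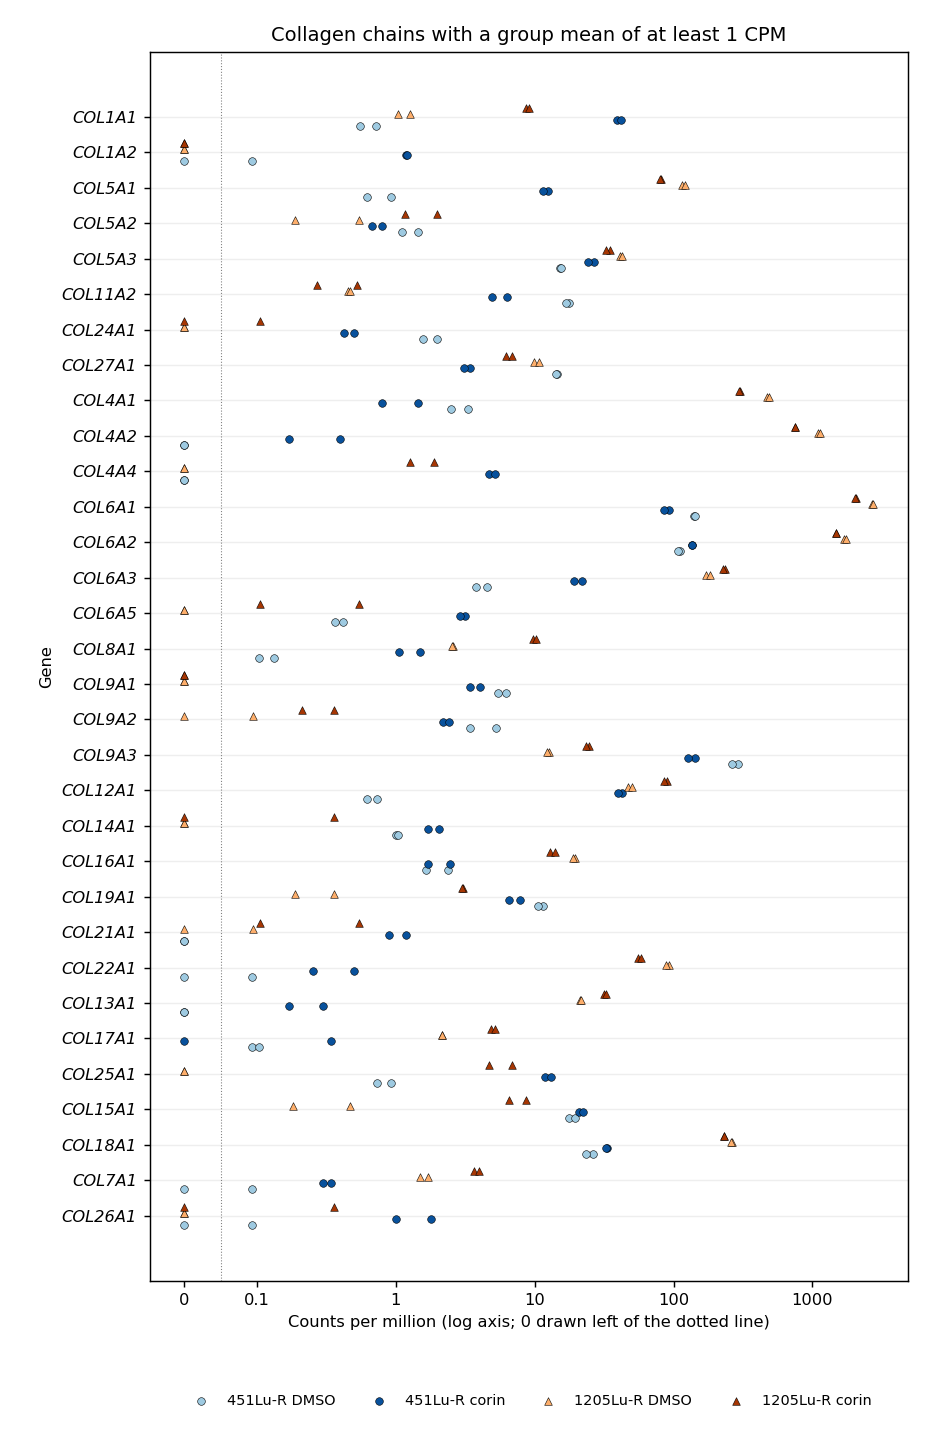
Levels of the 32 collagen chains with a group mean of at least 1 CPM, in CPM (log axis, with 0 drawn left of the dotted line), 1 point per library, 2 libraries per group, ordered by structural class. *COL6A1*, *COL6A2*, *COL4A2* and *COL4A1* reach 298 to 2749 CPM in 1205Lu-R, and *COL1A1* and *COL12A1* go from under 1 CPM to about 40 CPM in 451Lu-R with corin.

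Collagen IV is the network collagen of basement membranes, and its alpha 1 and alpha 2 chains assemble with each other. The genes *COL4A1* and *COL4A2* lie head to head, and the 126 bases between their RefSeq starts (chr13:110307158-110307283, GRCh38.p14, strand of *COL4A2*) are printed with a CCAAT motif in capitals, since 1 interval served both genes and the data differ between them.
COL4A1 and COL4A2: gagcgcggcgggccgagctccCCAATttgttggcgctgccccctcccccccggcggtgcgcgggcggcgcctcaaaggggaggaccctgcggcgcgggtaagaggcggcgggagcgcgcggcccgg

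CCAAT on either strand was present in 32% of all windows of 250 bases and before 16 of the 46 members with a window. In 1205Lu-R both genes were high and fell together. *COL4A1* went from 474 and 485 CPM to 302 and 298 CPM (-0.75 ± 0.03, edgeR adjusted p = 7.79e-16). *COL4A2* went from 1099 and 1131 CPM to 743 and 751 CPM (-0.65 ± 0.02, edgeR adjusted p = 7.4e-17). The ratio of *COL4A2* to *COL4A1* counts stayed between 2.32 and 2.52 in the 4 libraries.

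In 451Lu-R both genes were near or at the floor. *COL4A1* had 36 and 24 counts with DMSO (3.30 and 2.48 CPM) and 17 and 8 counts with corin (1.44 and 0.80 CPM), a log2 change of -1.24 ± 0.36 (edgeR adjusted p = 0.00402). *COL4A2* had 0 counts in both DMSO libraries and 2 and 4 with corin. The *COL4A1* call in 451Lu-R was lost without the first DMSO library (-1.02, edgeR adjusted p = 0.0592) or the second corin library (-0.90, edgeR adjusted p = 0.0688), and with DESeq2 (-1.24, adjusted p = 0.0698).

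*COL4A4*, a chain of the collagen IV network of kidney and lung basement membranes, was at 0 in all 4 DMSO libraries. With corin it was at 4.66 and 5.20 CPM in 451Lu-R and at 1.26 and 1.89 CPM in 1205Lu-R. Against the floor of 3 counts per library it was at least 16.8-fold higher in 451Lu-R (edgeR adjusted p = 2.31e-09) and at least 5.69-fold higher in 1205Lu-R (edgeR adjusted p = 4.54e-06). *COL4A3*, its neighbor 170 bases away on the opposite strand and its partner chain, had 3 counts or fewer in every library. *COL4A5* and *COL4A6*, the X-linked pair, were at that floor in every library as well.

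Collagen VI forms beaded filaments at the cell surface from chains encoded by *COL6A1*, *COL6A2* and *COL6A3*. It was the most abundant collagen in 1205Lu-R, with 67.4% and 67.5% of collagen counts in the vehicle libraries and 69.4% and 69.1% after corin. Its shares in 451Lu-R were 37.8% and 39.8% before and 40.7% and 40.8% after. *COL6A1* fell in both lines, from 140 and 143 CPM to 93.5 and 84.8 CPM in 451Lu-R (-0.56 ± 0.05, edgeR adjusted p = 8.63e-10) and from 2691 and 2749 CPM to 2058 and 2010 CPM in 1205Lu-R (-0.49 ± 0.01, edgeR adjusted p = 3.49e-20). These responses did not differ detectably (0.03 ± 0.07, edgeR adjusted p = 0.785), although they did with library size as the only scaling (0.24, edgeR adjusted p = 0.00312).

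*COL6A2*, which lies 93061 bases downstream of *COL6A1* on the same strand of chromosome 21, parted from it in 451Lu-R. It rose from 111 and 107 CPM to 137 and 136 CPM in that line (0.42 ± 0.04, edgeR adjusted p = 7.26e-09) and fell from 1690 and 1743 CPM to 1475 and 1484 CPM in 1205Lu-R (-0.29 ± 0.02, edgeR adjusted p = 1.36e-13). The count ratio of *COL6A1* to *COL6A2* in 451Lu-R was 1.25 and 1.34 in the DMSO libraries, against 0.685 and 0.622 after corin, so the order of the 2 chains turned. The same ratio in 1205Lu-R was 1.59 and 1.58, against 1.40 and 1.36 after corin. A ratio within a library does not depend on its scaling.

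*COL6A3*, the longest of the 3 chains, rose in both lines. It was at 3.81 and 4.55 CPM with DMSO and at 22.0 and 19.4 CPM with corin in 451Lu-R (2.43 ± 0.15, edgeR adjusted p = 8.75e-12), and at 170 and 182 CPM and 236 and 227 CPM in 1205Lu-R (0.32 ± 0.04, edgeR adjusted p = 8.45e-08). Per kilobase of exon it stayed the lowest of the 3, at 0.194 CPM per kb against 25.6 for *COL6A1* and 20.5 for *COL6A2* in 451Lu-R with DMSO, and at 8.18 against 491 and 322 CPM per kb in 1205Lu-R. The union of all annotated exons was used as length, and for *COL6A3* it is 21516 bases, so that its value per kilobase may be low. *COL6A5* rose from 0.367 and 0.414 CPM to 3.14 and 2.90 CPM in 451Lu-R (3.02 ± 0.42) and *COL6A6* was at the floor throughout.

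The FACIT collagens, which bind to the surface of fibrils, included the chain with the most counts in 451Lu-R with DMSO. *COL9A3*, a chain of the collagen IX of cartilage, was at 292 and 264 CPM with DMSO and 142 and 127 CPM with corin. It alone took 43.3% of the collagen counts of the first DMSO library. Its log2 change was -0.95 ± 0.05 in 451Lu-R (edgeR adjusted p = 1.93e-13), while in 1205Lu-R it rose from 12.7 and 12.2 CPM to 24.7 and 23.3 CPM (0.87 ± 0.11, edgeR adjusted p = 1.7e-07). Its exons overlap *TCFL5* on the opposite strand, which had 240 to 874 counts per library. The partner chains *COL9A1* (6.24 and 5.48 against 4.07 and 3.40 CPM) and *COL9A2* (5.23 and 3.41 against 2.20 and 2.40 CPM) changed by -0.55 ± 0.21 (edgeR adjusted p = 0.026) and -0.82 ± 0.28 (edgeR adjusted p = 0.0108) in 451Lu-R. Both calls were lost with DESeq2 and without the first DMSO library (-0.46, edgeR adjusted p = 0.156, and -0.48, edgeR adjusted p = 0.251). The *COL9A1* call was also lost without the second corin library (-0.42, edgeR adjusted p = 0.136) and the *COL9A2* call without the first (-0.76, edgeR adjusted p = 0.0521). In 1205Lu-R *COL9A1* was at 0 and *COL9A2* at 0 to 0.360 CPM.

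*COL12A1*, a FACIT chain that decorates type I fibrils, rose from 0.734 and 0.621 CPM to 42.8 and 39.6 CPM in 451Lu-R (6.0 ± 0.17, edgeR adjusted p = 4.43e-17). The rise in 1205Lu-R was from 47.2 and 50.6 CPM to 89.5 and 84.8 CPM (0.76 ± 0.05, edgeR adjusted p = 2.75e-11). With corin, 451Lu-R thus came close to the DMSO level of 1205Lu-R. *COL19A1* fell in 451Lu-R from 11.5 and 10.5 CPM to 6.56 and 7.84 CPM (-0.53 ± 0.15, edgeR adjusted p = 0.00349) and rose in 1205Lu-R from 0.361 and 0.188 CPM to 3.04 and 2.99 CPM (3.32 ± 0.47, edgeR adjusted p = 1.35e-06). With DESeq2 the fall in 451Lu-R did not pass (-0.51, adjusted p = 0.1). *LMBRD1*, whose exons overlap those of *COL19A1* on the other strand, had 105 to 658 counts per library.

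*COL22A1*, known from tissue junctions, was at 92.3 and 87.9 CPM with DMSO and 55.1 and 58.6 CPM with corin in 1205Lu-R (-0.74 ± 0.05, edgeR adjusted p = 1.66e-11). In 451Lu-R it had 0 to 0.50 CPM. *COL16A1* fell in 1205Lu-R from 19.5 and 19.0 CPM to 12.8 and 14.1 CPM (-0.58 ± 0.11, edgeR adjusted p = 5.79e-05) and was at 1.65 to 2.46 CPM in 451Lu-R (0.17 ± 0.34, edgeR adjusted p = 0.653). *COL14A1* rose in 451Lu-R from 1.01 and 1.03 CPM to 2.03 and 1.70 CPM (0.97 ± 0.38, edgeR adjusted p = 0.0254), a call that was lost when any 1 of the 4 libraries was left out (edgeR adjusted p from 0.0756 to 0.229) and with DESeq2 (adjusted p = 0.21). It also missed the threshold with the replicate number as a block (edgeR adjusted p = 0.0591).

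The transmembrane, anchoring and multiplexin collagens rose in each line in which they were tested, apart from *COL18A1* in 1205Lu-R. *COL25A1*, a transmembrane collagen found in amyloid plaques, was at 0.734 and 0.931 CPM with DMSO and 11.9 and 13.2 CPM with corin in 451Lu-R (4.0 ± 0.24, edgeR adjusted p = 6.55e-12). In 1205Lu-R it had 0 counts in both DMSO libraries and 6.83 and 4.68 CPM with corin, at least 20.8-fold above the floor of 3 counts (edgeR adjusted p = 1.15e-09). *COL13A1*, a transmembrane collagen of the neuromuscular junction, rose in 1205Lu-R from 21.1 and 21.6 CPM to 31.5 and 32.4 CPM (0.51 ± 0.08, edgeR adjusted p = 1.08e-05) and was at the floor in 451Lu-R. *COL17A1*, a hemidesmosome collagen, rose in 1205Lu-R from 2.17 in each DMSO library to 4.83 and 5.22 CPM (1.14 ± 0.25, edgeR adjusted p = 0.000309), and *COL7A1*, which forms anchoring fibrils, from 1.72 and 1.51 CPM to 3.68 and 3.96 CPM (1.17 ± 0.29, edgeR adjusted p = 0.000997).

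*COL15A1*, a multiplexin of the basement membrane zone, rose in 1205Lu-R from 0.181 and 0.471 CPM to 8.62 and 6.57 CPM (4.42 ± 0.38, edgeR adjusted p = 4.97e-10). In 451Lu-R it was at 17.7 and 19.6 CPM with DMSO and 20.9 and 22.2 CPM with corin (0.31 ± 0.10, edgeR adjusted p = 0.00687). That small change missed the threshold without the first DMSO library (0.23, edgeR adjusted p = 0.0829), with library size alone (0.21, edgeR adjusted p = 0.052) and with DESeq2 (0.32, adjusted p = 0.121). *COL18A1*, the precursor of endostatin, rose from 26.3 and 23.3 CPM to 33.2 and 32.6 CPM in 451Lu-R (0.50 ± 0.08) and fell from 263 and 258 CPM to 232 and 230 CPM in 1205Lu-R (-0.25 ± 0.03). *SLC19A1*, on the opposite strand of part of *COL18A1*, had 318 to 930 counts per library.

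*COL8A1*, a short-chain network collagen of vessel walls and cornea, rose in 1205Lu-R from 2.56 and 2.53 CPM to 9.67 and 10.2 CPM (1.90 ± 0.19, edgeR adjusted p = 9.34e-09). In 451Lu-R it went from the floor to 1.06 and 1.49 CPM, at least 4.36-fold higher (edgeR adjusted p = 7.77e-05), while its partner *COL8A2* was at 0 to 0.700 CPM in all libraries and was not tested. *COL26A1* went from the floor to 1.78 and 1.0 CPM in 451Lu-R, at least 4.75-fold higher (edgeR adjusted p = 3.84e-05). In all, 9 members had 3 counts or fewer in every library, and 24 members were at that floor in 451Lu-R with DMSO against 13 with corin. In 1205Lu-R these numbers were 23 and 17. Over all genes, more passed with corin too, but this was counted at a higher threshold. Whether the members left the floor more often than other genes was therefore not tested. Genes over a higher count threshold went from 13169 with DMSO to 14455 with corin in 451Lu-R and from 13105 to 14519 in 1205Lu-R. The floor itself was not counted over all genes.

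The second question was whether the lines differed in their response. By the interaction term of edgeR on all 8 libraries, 46 members were tested, and the log2 change was higher in 1205Lu-R for 12 and lower for 16. Of all 16062 tested genes, 22.6% and 27.1% were called in these directions. At 2-fold or more it was 7 and 9 members, against 9.34% and 9.46% of all genes. The largest differences among members above the floor in all groups were in *COL12A1* (-5.27 ± 0.20, edgeR adjusted p = 3.22e-15) and *COL5A1* (-4.68 ± 0.21, edgeR adjusted p = 6.94e-14), which were low in 451Lu-R and gained more there. In the other direction, *COL15A1* differed by 4.07 ± 0.38 (edgeR adjusted p = 9.01e-09) and *COL19A1* by 3.81 ± 0.46 (edgeR adjusted p = 4.67e-07), and these were low in 1205Lu-R. The 7 members with opposite calls in the 2 lines, *COL18A1*, *COL5A1*, *COL5A3*, *COL6A2*, *PLOD1*, *COL19A1* and *COL9A3*, were all called in the interaction test. That test uses the same libraries, so opposite calls made this outcome nearly certain and it adds no support to them.

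**Figure D3:**
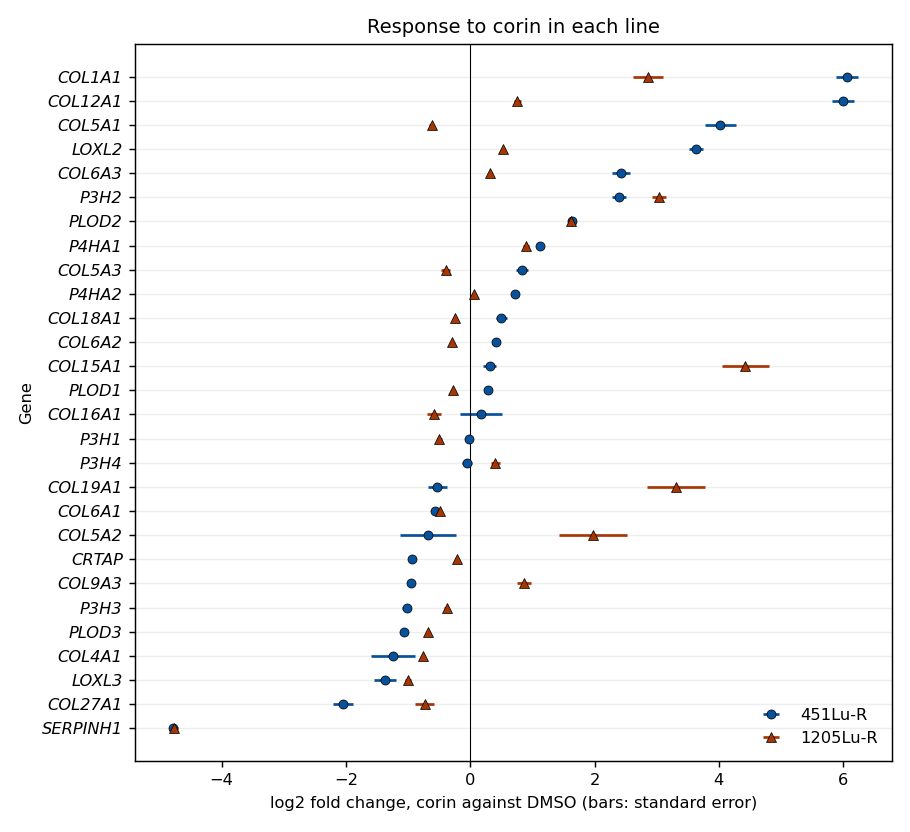
Log2 fold change of corin against DMSO in 451Lu-R (circles) and 1205Lu-R (triangles) for the 28 members tested in both lines and above the floor of 3 counts in all groups, with bars for the standard error and n = 2 libraries per group. *SERPINH1* and *PLOD2* have overlapping points, while *COL12A1* and *COL5A1* are far apart.

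The third question was how the lines differed before and after corin. With DMSO, 25 of 41 tested members were higher in 1205Lu-R and 13 were lower, where 41% and 41.5% of all 14104 tested genes were called in these directions. At 2-fold or more the counts were 22 and 9, against 19.6% and 21.8% of all genes, and the median log2 difference was 1.56 over members and -0.01 over all genes. The genes higher in 1205Lu-R included the basement membrane and filament chains. *COL4A1* was higher by 7.46 ± 0.07 on the log2 scale (edgeR adjusted p = 7.59e-31), *COL6A1* by 4.37 ± 0.03, *COL6A2* by 4.08 ± 0.03 and *COL6A3* by 5.51 ± 0.09. Against 0 counts in 451Lu-R, *COL4A2* was at least 3809-fold higher, with *COL22A1* at least 308-fold, *LOX* at least 208-fold and *COL13A1* at least 72.8-fold higher than the floor. *LOXL2* was higher by 7.19 ± 0.06, *LOXL3* by 4.07 ± 0.07 and *COL5A1* by 7.33 ± 0.13.

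Members lower in 1205Lu-R with DMSO included *COL9A3* (-4.37 ± 0.07), *COL15A1* (-5.69 ± 0.28), *COL19A1* (-5.15 ± 0.32) and *COL11A2* (-5.09 ± 0.25), while *COL9A1* was at least 21.2-fold and *COL9A2* at least 15.6-fold higher in 451Lu-R than the floor. *SERPINH1* was lower in 1205Lu-R by -0.60 ± 0.03 (edgeR adjusted p = 4.45e-16) and *PLOD2* by -0.67 ± 0.07. *COL1A1* (0.96 ± 0.48, edgeR adjusted p = 0.0681), *P3H2* (-0.11 ± 0.20, edgeR adjusted p = 0.614) and *P3H4* (-0.04 ± 0.08, edgeR adjusted p = 0.664) did not pass. The call for *P4HA1* (0.12 ± 0.06, edgeR adjusted p = 0.0467) was lost without the first DMSO library of 451Lu-R (0.06, edgeR adjusted p = 0.439) and without either DMSO library of 1205Lu-R (0.11, edgeR adjusted p = 0.147, and 0.15, edgeR adjusted p = 0.0524).

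With corin, 26 of 45 tested members were higher in 1205Lu-R and 16 were lower, against 39% and 40.2% of all 15363 tested genes. At 2-fold or more the counts were 21 and 13, against 18.6% and 19.9%. *COL4A1* (7.93 ± 0.09) and *COL6A1* (4.42 ± 0.04) had differences near those with DMSO, while *COL12A1* went from a log2 difference of 6.25 ± 0.17 with DMSO to 0.99 ± 0.06 with corin, and *COL5A1* from 7.33 ± 0.13 to 2.66 ± 0.08. *COL1A1* was lower in 1205Lu-R by -2.27 ± 0.09 (edgeR adjusted p = 8.59e-14). *LOXL2* stayed higher in 1205Lu-R by 4.06 ± 0.04 and *SERPINH1* lower by -0.61 ± 0.13 (edgeR adjusted p = 0.000266). Each comparison of lines uses libraries that also enter the comparisons with corin, so its values are given side by side with them only.

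**Figure D4:**
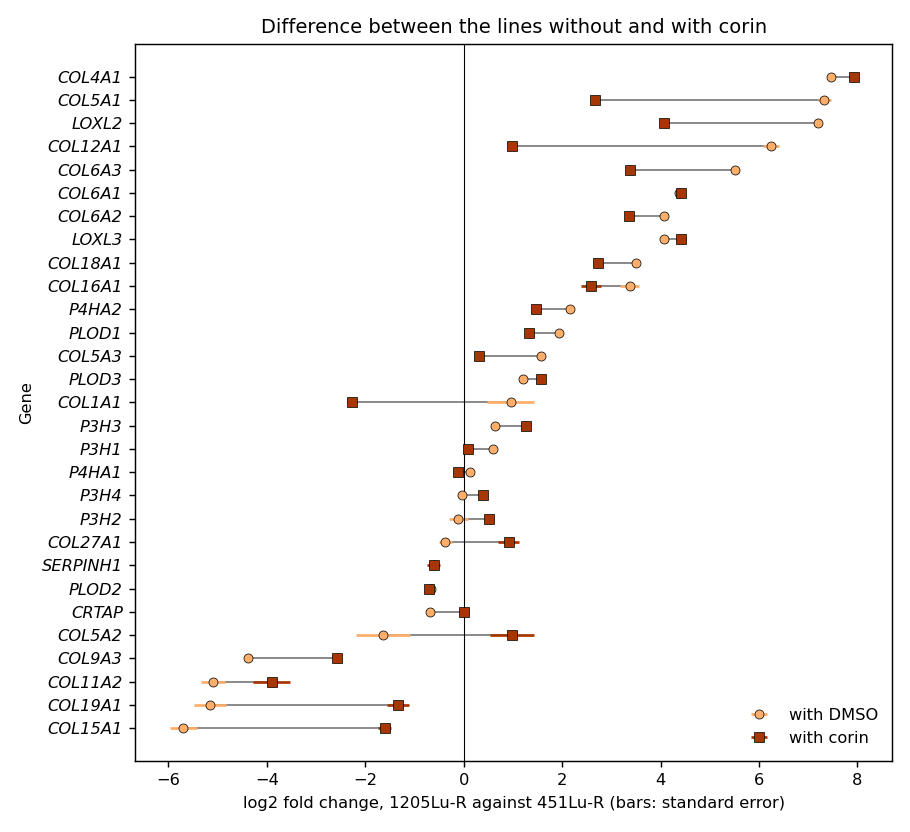
Log2 difference of 1205Lu-R against 451Lu-R with DMSO (circles) and with corin (squares) for 29 members above the floor in all groups, with bars for the standard error, n = 2 libraries per group. *COL12A1* and *COL5A1* move toward 0 with corin, *COL1A1* crosses 0, and *COL4A1*, *COL6A1* and *SERPINH1* stay nearly in place.

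The genes that act with the members were described from lists of folding and export factors, propeptide proteases, fibril assembly partners and collagen receptors. From each list at most 3 called genes per line are named, by the size of the change among those with a mean of at least 10 CPM in any of the 4 groups of both lines, so that called genes below that level are counted but not named. Of 21 folding and export factors, 20 were tested in 451Lu-R, with 7 higher and 7 lower, and all 21 in 1205Lu-R, with 9 higher and 10 lower. Of all tested genes, 41.3% were higher and 38.6% lower for 451Lu-R, while for 1205Lu-R it was 40.4% and 37.8%, against which this and the following counts are to be read. The genes named in 451Lu-R are *TMEM38B*, an endoplasmic reticulum potassium channel (0.79 ± 0.08), *SEC24D*, a coat protein of export vesicles (0.67 ± 0.07), and *MIA2*, an export receptor (0.64 ± 0.11). In 1205Lu-R they are *HSPA5*, the general chaperone BiP, at mean levels of 1122 and 2579 CPM (1.13 ± 0.01), *FKBP14*, a prolyl isomerase (1.07 ± 0.04), and *MIA2* (0.89 ± 0.13).

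Of 11 propeptide proteases and enhancers, which trim procollagen outside the cell, 4 rose and 1 fell of 7 tested in 451Lu-R, and 5 rose and 1 fell of 8 in 1205Lu-R. *TLL2*, a tolloid-like protease, rose from mean levels of 0.430 to 21.1 CPM in 451Lu-R (5.65 ± 0.24) and from 0.787 to 6.11 CPM in 1205Lu-R (2.88 ± 0.31). *ADAMTS3*, a procollagen N-proteinase, rose in both (3.12 ± 0.54 and 0.61 ± 0.13), in 451Lu-R at low level, from a mean of 0.253 to 2.07 CPM. *BMP1*, the main C-proteinase, fell in 451Lu-R (-0.44 ± 0.09), and *PCOLCE2*, a C-proteinase enhancer, rose in 1205Lu-R (1.93 ± 0.15).

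All 8 tested of 16 fibril assembly partners rose in 451Lu-R, with a median log2 change of 1.68, and 3 rose and 2 fell of 7 in 1205Lu-R. Named in 451Lu-R are the matrix proteins *THBS2* (4.48 ± 0.46, from a mean of 0.189 to 4.28 CPM), *THBS1* (2.25 ± 0.36, 0.769 to 3.49 CPM) and *FBLN1* (1.84 ± 0.47, 0.494 to 1.67 CPM). These reach 10 CPM in 1205Lu-R only. In 1205Lu-R *THBS1* rose from 2834 to 5744 CPM (0.95 ± 0.01), *PRELP* rose at low level (1.36 ± 0.43) and *SPARC*, a collagen-binding protein, fell (-0.31 ± 0.02). The naming ranks genes by change and not by level. Among the genes it leaves out in 451Lu-R are *FN1*, which rose from a mean of 697 to 1860 CPM (1.52 ± 0.02), and *SPARC*, which rose from 1745 to 2627 CPM (0.69 ± 0.02). For 1205Lu-R it leaves out *FN1* as well, which fell from 5563 to 4830 CPM (-0.28 ± 0.01). Of 12 collagen receptors, 7 rose and 1 fell of 9 tested in 451Lu-R, while 2 rose and 4 fell of 8 in 1205Lu-R. *MRC2*, an uptake receptor for collagen, rose in 451Lu-R from 3.73 to 107 CPM (4.95 ± 0.10, edgeR adjusted p = 2.24e-19), and *ITGA11*, an integrin subunit that binds fibrillar collagen, went from 0 counts to 2.35 CPM. The receptor kinase *DDR2* fell in both lines, from 9.45 to 1.82 CPM in 451Lu-R (-2.26 ± 0.22) and from 155 to 42.2 CPM in 1205Lu-R (-1.95 ± 0.06), where *DDR1* (-0.62 ± 0.08) and *ITGA2* (-0.57 ± 0.03) fell as well.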

How the data were processed

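RNA-Seq of 451Lu-R and 1205Lu-R cells was analysed. Per the labels and methods, reads were trimmed (Trimmomatic) and mapped by Salmon to GENCODE 32 transcripts by the authors, who added transcripts up to genes and used DESeq2 for their own tests, with versions not given in the sources used here. The authors deposited expected counts (estimated read counts per gene, not normalized) for 8 libraries. Other deposited tables hold the authors' own log2 fold changes and adjusted p-values for PLX4032 plus corin against PLX4032 and were not used. Estimated counts were rounded, and groups were taken from the titles. Of 34228 genes, 34052 were matched by ID to GENCODE 44 (hg38), which gave symbols, lengths and overlaps. Without stated strandedness, reads of a member and a gene on the opposite strand cannot be told apart, and 21 members have such exonic overlaps. Exonic overlaps on the same strand, which strandedness would not resolve, include *LOXL2* with *ENTPD4* and *P3H3* with *GPR162*. Their part in the values was not tested. Multi-mapping reads were shared out by Salmon, so chains of similar sequence could exchange counts.

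Each comparison was fitted on the libraries it concerns, and the interaction on all 8, with edgeR 4.0.16 in R 4.3.3 (filterByExpr, TMM factors from 0.962 to 1.05, glmQLFit and glmQLFTest, 2-sided, Benjamini-Hochberg adjustment over all genes). The SE is the log2 fold change divided by the square root of F. CPM uses the library total. A group with 3 counts or fewer in each library is at the floor, and folds against it are lower bounds from 3 counts per library, which cover counting error only. Alternatives were DESeq2 1.42.0, RLE factors, a filter at a mean of 1 CPM or no filter, a replicate block, at least 4-fold with an adjusted p under 0.001, 1 fit on all libraries and leaving out each library. Library size as the only scaling was added after the data were seen. The code was tested on simulated data in which the changed genes were known. Between the 2 replicates of a group the chi-square per degree of freedom ran from 1.34 to 1.41, and each pair was counted as 2 libraries. The members and lists were chosen with earlier results of these data known. Values in every library are given for members with a group mean of at least 10 CPM, for partner chains and for lower members with a call of at least 2-fold, and from each list at most the 3 called genes with the largest change and a mean of at least 10 CPM in any of the 4 groups.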

Additional observations from a re-analysis of the deposited data

Results flagged for a closer look

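The response to corin differed between the lines, by the interaction term of edgeR at an adjusted p under 0.05, for 28 members, and the values here are the log2 fold change in 1205Lu-R minus that in 451Lu-R. Among chains that were above the floor in all groups, it was lower in 1205Lu-R for *COL12A1* (-5.27), *COL5A1* (-4.68), *COL1A1* (-3.24), *COL6A3* (-2.15), *COL5A3* (-1.27), *COL16A1* (-0.80), *COL18A1* (-0.79) and *COL6A2* (-0.75). It was higher for *COL15A1* (4.07), *COL19A1* (3.81), *COL5A2* (2.62), *COL9A3* (1.77) and *COL27A1* (1.28). Of the maturation genes, it was lower for *LOXL2* (-3.14), *P4HA2* (-0.69), *PLOD1* (-0.62), *P3H1* (-0.52) and *P4HA1* (-0.26), and higher for *CRTAP* (0.68), *P3H3* (0.61), *P3H2* (0.60), *P3H4* (0.42) and *PLOD3* (0.35).

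For 5 chains at least 1 group was at 3 counts or fewer per library, so that the size of the fitted difference is uncertain, namely *COL4A2* (-5.32), *COL13A1* (-3.90), *COL22A1* (-3.51), *COL25A1* (4.86) and *COL9A2* (3.11). With DESeq2 in place of edgeR the calls for *COL5A2* (2.69, DESeq2 adjusted p = 0.0629), *COL9A2* (3.36, DESeq2 adjusted p = 0.112), *COL13A1* (-3.29, DESeq2 adjusted p = 0.0894) and *COL16A1* (-0.79, DESeq2 adjusted p = 0.132) were lost, and with no filter on low counts those for *COL13A1* (-3.93, edgeR adjusted p = 0.0754) and *COL16A1* (-0.80, edgeR adjusted p = 0.0608). Leaving out a library also ended some calls. For *COL4A2* these were the first or second DMSO library or the second corin library of 451Lu-R (edgeR adjusted p = 0.101, 0.0867 and 0.0538), and for *COL13A1* the same 3 libraries (edgeR adjusted p = 0.158, 0.134 and 0.125). For *COL22A1* it was the second corin library of 451Lu-R (-2.99, edgeR adjusted p = 0.0681). For *COL9A2* it was the first DMSO or first corin library of 451Lu-R (edgeR adjusted p = 0.0921 and 0.0572) or the first DMSO or second corin library of 1205Lu-R (edgeR adjusted p = 0.195 and 0.194). *COL16A1* lost its call without the first DMSO or first corin library of 451Lu-R (-0.56, edgeR adjusted p = 0.233, and -0.47, edgeR adjusted p = 0.416) and without either DMSO library or the first corin library of 1205Lu-R (edgeR adjusted p = 0.0704, 0.0512 and 0.0815). *COL5A2* lost it without the second DMSO or first corin library of 1205Lu-R (2.05, edgeR adjusted p = 0.0575, and 2.23, edgeR adjusted p = 0.0527). *P3H2* lost it without the first DMSO library of 451Lu-R (0.36, edgeR adjusted p = 0.25) or the second DMSO library of 1205Lu-R (0.36, edgeR adjusted p = 0.173).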

How the results depend on the processing

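No member tested under an alternative changed direction with its call. Requiring at least a 4-fold change with an adjusted p under 0.001 left 12 members higher and 2 lower for corin in 451Lu-R. It left 7 higher and 1 lower in 1205Lu-R, and 2 and 5 for the difference in response. Shares over all genes were not taken under this rule. Between the lines it left 8 lower in 1205Lu-R with DMSO, and 17 higher and 9 lower in 1205Lu-R with corin. The number higher in 1205Lu-R with DMSO, 25 in the main fit, stayed within 1.5 times that count. Under every other alternative these counts stayed within 1.5 times those reported, and leaving out 1 library gave 18 to 21 higher and 11 to 14 lower in 451Lu-R, and 18 to 19 higher and 17 lower in 1205Lu-R. Library size as the only scaling, chosen after the data were seen, moved the median log2 difference in response of all genes from -0.01 to 0.20, and turned the call for *P4HA1* (difference of -0.05, edgeR adjusted p = 0.596), *COL13A1* (-3.77, edgeR adjusted p = 0.0526) and *COL16A1* (-0.59, edgeR adjusted p = 0.133) into none. The replicate numbers did not pair the libraries (correlation of deviations -0.03 for 451Lu-R, 0.02 for the other line), and with them as a block 20 members were higher and 14 lower in 451Lu-R, with 19 and 17 for 1205Lu-R. A group left with 1 library is assumed to vary like the others, and chains at a few counts per library carry little information.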
